A study of Mus musculus with 6 samples.

Results

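The genes described here are 10 members of the Notch pathway, comprising the receptors Notch1, Notch2, Notch3 and Notch4, the ligands Jag1, Jag2, Dll1 and Dll4, and the target genes Hes1 and Hes5. Their CpG sites were the rows of the deposited methylation table that lie between 1 kb upstream of the gene start and the gene end, taken from GENCODE M21 gene records along the strand of each gene. This window held 917 of the 890041 CpG sites in the table, with 316 sites in the receptors, 411 in the ligands and 190 in the targets. The 10 genes stand among 17008 protein-coding genes with at least 1 site. Reduced representation bisulfite sequencing (RRBS), which reads CpG-rich DNA cut at CCGG, gave the DNA methylation of micro-dissected dentate gyrus of female C57BL/6JRj mice aged 4.5 months. Standard cages (STD, n = 3 mice) were compared with environmental enrichment (ENR, n = 3 mice), a larger enclosure with tunnels and toys that were rearranged. All 6 mice shared strain, sex and age, and each library came from another mouse. ENR mice of an experiment lived together in 1 enclosure, so an effect of that enclosure and an effect of enrichment cannot be told apart.

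Notch signaling passes between neighboring cells. A Delta-like or Jagged ligand on one cell binds a Notch receptor on the next, gamma-secretase releases the intracellular part of the receptor, and this fragment joins the DNA-binding protein Rbpj to switch on genes such as Hes1 and Hes5. Both Hes proteins repress proneural genes, and in the dentate gyrus the pathway is known for keeping neural stem cells from differentiating. Notch3, Notch4 and Dll4 are also known from blood vessels, where Notch3 marks mural cells and Notch4 and Dll4 mark endothelium.

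A methylation level here is the percent of reads over a cytosine that were methylated, and a level of a region is the mean over its sites in a library. The promoter was the part within 1 kb of the gene start on either side, and the body was the rest of the window. How many reads lie behind a percentage is not known, apart from a minimum that the authors set, so no interval for single sites is given. Across the whole table, library means were 22.5% to 24.3% in STD and 21.3% to 24.2% in ENR, and the library numbered 3 was the lowest of each group. At the 40 sites of the Notch genes with a mean of 20% to 80%, STD libraries were at 55.4%, 54.8% and 47.5% and ENR libraries at 50.4%, 51.5% and 35.5%, in the order of replicates 1 to 3. The part of this library difference in the values below was not tested, and values without both libraries numbered 3 are given with the larger differences of windows, promoters, bodies and sites. Of 11 cell type markers, 5 had promoter sites. Prox1 and Calb1, which mark dentate granule neurons, were at 1.65% and 1.5%, whereas Aldh1l1 of astrocytes was at 44.4%, Mag of myelin at 52.4% over 2 sites and Cldn5 of endothelium at 5.03%. Methylation does not measure expression. In bulk tissue, a change in the share of a cell type and a change of methylation within a cell type cannot be told apart.

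Most Notch gene sites had a low mean over the 6 mice. A mean under 5% was found at 731 of the 917 sites (79.7%), against 54.8% of all sites in the table, and 393 sites (42.9%) were at 0% in all 6 libraries, against 29.8% in the table. Only 40 sites lay between 20% and 80%, and 43 lay above 80%. The sequence around the sites was rich in CpG. At 737 sites (80.4%) the surrounding 201 bases met a local criterion for a CpG island, at least 50% G and C and a CpG count of at least 0.6 of that expected from the base composition. A CCGG lay within 75 bases of 916 of the 917 sites, and 191 sites (20.8%) were themselves inside a CCGG. The shares of island-like and CCGG sites over the whole table were not computed. Since RRBS reads CpG-rich DNA cut at CCGG, these counts do not set the Notch sites apart. Bases that the reference marks as repeats held 21 sites (2.29%), against 9.59% of all sites in the table.

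The promoters of 8 of the 9 genes with promoter sites were below 5%, as were 83.3% of 13228 promoters of all protein-coding genes. In ascending order of the mean over 6 libraries, the promoter levels were 0.973% in Hes1, 1.11% in Notch2, 1.24% in Jag1, 1.58% in Dll4, 1.88% in Hes5, 1.98% in Dll1, 2.0% in Jag2 and 2.13% in Notch3. The ranges over libraries of each neighboring pair in this order overlapped. The promoter of Notch4 stood apart at 42.0%, with libraries from 30.7% to 49.4%. This level holds for the 9 sites around the gene start. Notch4 has 11 annotated transcript starts, several of them inside the gene, and the 56 sites within 1 kb of any of them were at 8.14%, with libraries from 6.18% to 9.82%. Notch1 had no site within 1 kb of its gene start, because its gene record begins 12841 bases before the transcript that carries its consensus coding sequence. Within 1 kb of any of its transcript starts, Notch1 had 43 sites at a mean of 1.44%.

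The bodies were more varied. Hes1 (2.12%), Dll1 (2.26%) and Notch1 (2.99%) had low bodies whose libraries overlapped. Notch4 (7.85%) and Dll4 (8.69%) followed, then Jag1 (13.6%) and Notch3 (14.4%), and the highest were Jag2 (54.1%) and Notch2 (67.4%). The ranges of Notch4 and Dll4, of Jag1 and Notch3, and of Jag2 and Notch2 overlapped. Many body sites lay within 1 kb of an annotated transcript start other than the gene start. This held for all 68 sites of Hes1, all 47 of Dll1 and all 5 of Jag2. It held for 43 of 67 in Notch1, 47 of 60 in Notch4 and 5 of 13 in Dll4, and for 0 in Notch2, Notch3 and Jag1. The share of such sites over the bodies of all genes was not computed. The median body among 10849 genes was 43.1%, and 7 of the 9 bodies with sites lay below it. Hes5 has no body in this sense, since the whole gene is 1449 bases long and its last site lies 881 bases after the start.

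**Figure D1:**
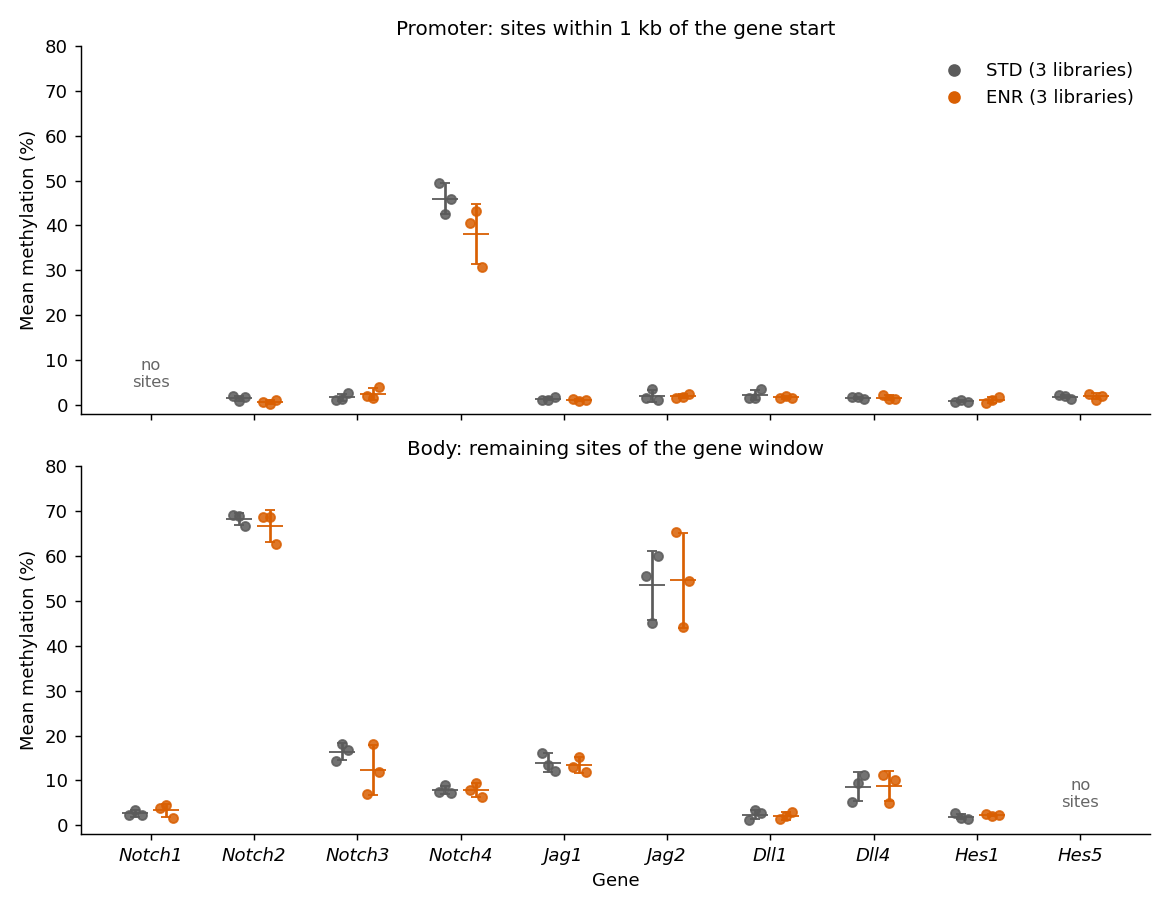
Mean methylation in percent of the promoter (upper panel) and the body (lower panel) of each gene, with 1 point per library, STD in grey and ENR in orange, and bars for the mean and SD of 3 libraries. All promoters lie near 0 except that of Notch4, at 30.7% to 49.4%, and the bodies of Notch2 and Jag2 lie above 40% in every library.

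To compare promoter and body within each mouse, the difference of both means was taken per library and tested with limma across 7997 genes that had at least 3 sites in each. Promoters were lower than bodies at an adjusted p under 0.05 in 85.8% of these genes, and this held for 5 of the 8 Notch genes tested. The differences were -66.3 percentage points in Notch2, -52.1 in Jag2, -12.4 in Jag1, -12.2 in Notch3 and -7.11 in Dll4, each in 6 of 6 libraries, with adjusted limma p-values from 1.04e-07 to 0.00102. Hes1 (-1.15, adjusted p = 0.104) and Dll1 (-0.284, adjusted p = 0.696) did not pass in limma. The median difference was -9.68 percentage points over the 8 genes and -36.4 over all 7997. Notch4 went the other way. Its promoter was higher than its body by 34.2 percentage points in 6 of 6 libraries (limma, adjusted p = 1.63e-06), a direction that was called in 3.96% of all genes. A promoter more than 20 percentage points above its body was found in 124 genes (1.55%). This direction turned with the definition of a promoter, a setting chosen after seeing the data. When the 56 Notch4 sites within 1 kb of any transcript start were set against its other 13 sites, the difference was -22.1 percentage points (limma, adjusted p = 7.03e-06). It was -22.3, -27.1 and -19.5 percentage points in STD and -24.9, -21.5 and -17.4 in ENR, so the sites near starts were lower in every library. In the same setting the call of Dll4 was lost and its direction turned, with 0.693 percentage points between its 58 sites near a start and the other 8 (limma, adjusted p = 0.486).

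Notch2, a receptor on chromosome 3 (98013527 to 98150361, plus strand, ENSMUSG00000027878.11), had the largest difference between promoter and body. Its 76 promoter sites were at 1.93%, 0.794% and 1.69% in STD and 0.743%, 0.286% and 1.21% in ENR. Its 58 body sites were at 69.1%, 68.8% and 66.6% in STD and 68.8%, 68.6% and 62.6% in ENR. Every library thus had a nearly unmethylated promoter and a body above 60%. Along the body, 9 sites in an intron at 10993 to 11138 bases from the start were an exception at 9.44%. The coding part of the last exon and the 3' untranslated region were the highest stretches. The 16 coding sites of exon 34, which encodes the C-terminal end of the intracellular part, were at 86.1%, and the 14 sites of the 3' untranslated region at 92.5%.

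Notch3, a receptor on chromosome 17 (32120820 to 32166852, minus strand, ENSMUSG00000038146.8), had a smaller difference between promoter and body. Its 24 promoter sites were at 1.17%, 1.38% and 2.67% in STD and 2.04%, 1.49% and 4.02% in ENR, and 9 intronic sites about 4.4 kb further on were still at 2.80%. Its 22 body sites were at 14.3%, 18.1% and 16.8% in STD and 7.0%, 18.2% and 11.9% in ENR. The body level came mainly from 7 sites in coding exon 24, at 26.9%, 30.1% and 37.4% in STD and 16.2%, 23.6% and 27.0% in ENR, and from 2 sites in exon 33 that ran from 8.76% to 100% between libraries. The STD and ENR values of exon 24 overlapped only through ENR replicate 3 (difference -9.19 percentage points, two-sided exact permutation p = 0.2). Without both libraries numbered 3 the difference was -8.61.

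Notch1, a receptor on chromosome 2 (26457903 to 26516663, minus strand, ENSMUSG00000026923.15), was low over nearly all of its 67 sites. Its level was 2.25%, 3.40% and 2.22% in STD and 3.81%, 4.55% and 1.71% in ENR. The 10 sites of the 5' untranslated exon were at 2.16% and the 47 sites of the intronic stretch after it at 0.951%. Stretches above 10% held 3 or 4 sites each, with means of 12.5% upstream of the consensus transcript, 13.3% in an intron and 14.4% in coding exon 34.

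Notch4, on chromosome 17 (34564268 to 34588503, plus strand, ENSMUSG00000015468.14), had a promoter level above and a last exon level below those of the other receptors. Its promoter had 9 sites, at 49.4%, 42.6% and 45.8% in STD and 40.5%, 43.2% and 30.7% in ENR. Its 60 body sites were at 7.35%, 8.96% and 7.19% in STD and 7.81%, 9.49% and 6.29% in ENR. In every library the promoter around the gene start was above the body, of which 47 sites lay within 1 kb of another transcript start. The highest promoter sites were 3 sites at positions -577 to -530 relative to the start, with a mean of 84.8%, and the lowest was a single site at -79, at 4.97%. The 5 sites from 154 to 730 bases after the start lay between 12.4% and 38.7%.

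**Figure D2:**
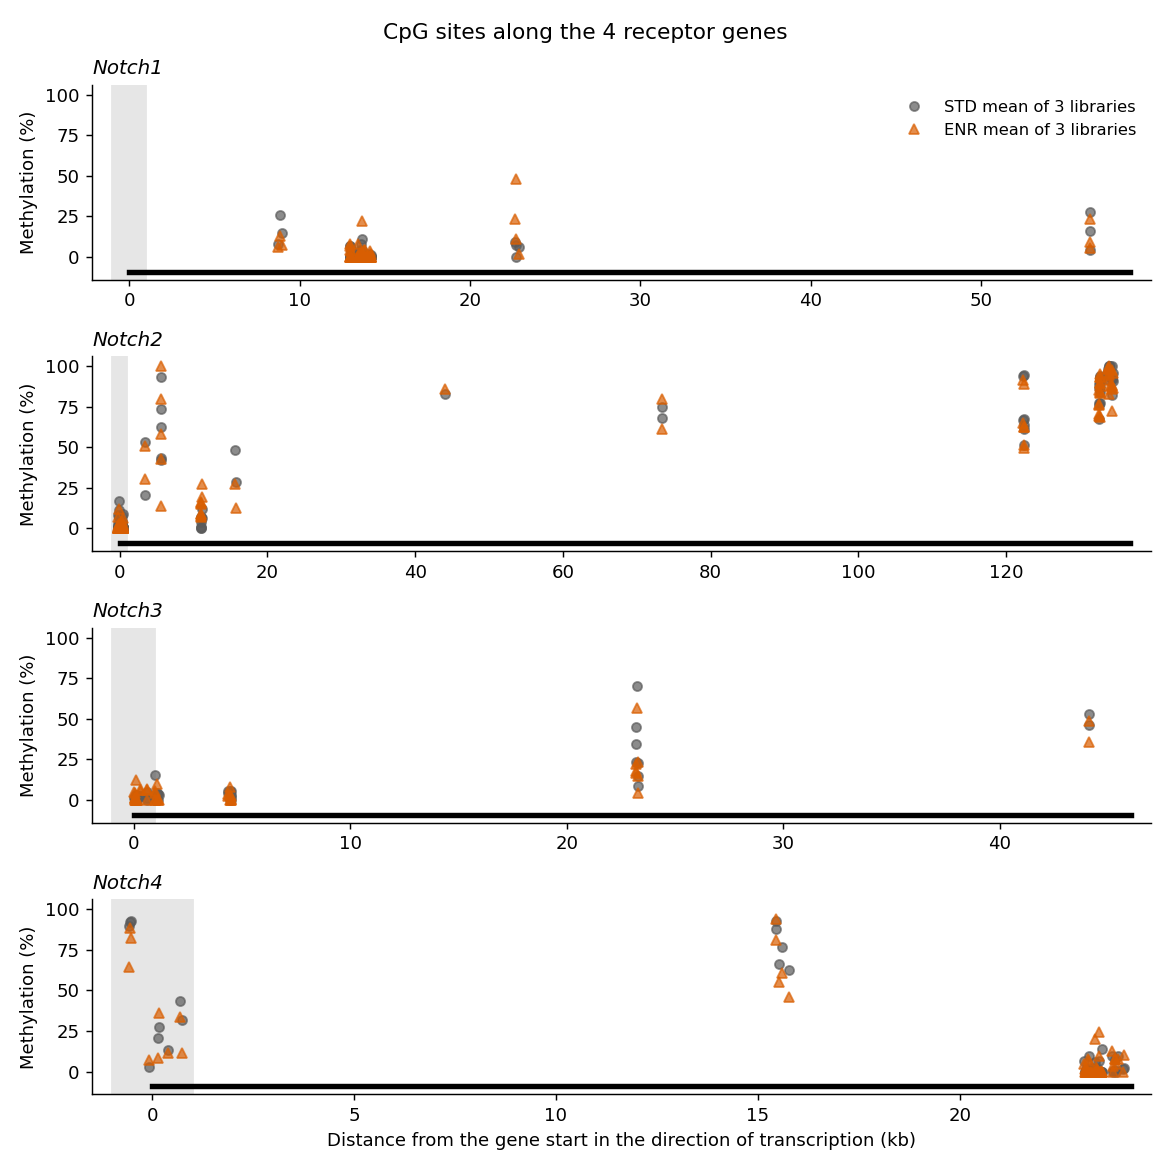
Methylation in percent of each CpG site of the 4 receptor genes against its distance from the gene start in kb, as STD means (grey circles) and ENR means (orange triangles) of 3 libraries; the grey band marks the promoter and the black bar the gene. Notch2 rises towards its end, where the last exon is at 86.1%, whereas Notch4 starts at a promoter of 42.0% and ends near 0.

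The promoter of Notch4 is shown beside that of the target Hes5, which had a level of 1.88%, so that their CpG content can be compared. The 250 bases before the RefSeq start of Notch4 (GRCm38.p6) hold 4 CpGs, of which 1 was measured, whereas those of Hes5 hold 32, of which 16 were measured. In the lines of promoters, of the distal Notch4 stretch and of last exons, the capitals mark all measured CpGs, and every line runs 5′ to 3′ along the gene.
Notch4 promoter, chr17:34564045-34564294, plus strand: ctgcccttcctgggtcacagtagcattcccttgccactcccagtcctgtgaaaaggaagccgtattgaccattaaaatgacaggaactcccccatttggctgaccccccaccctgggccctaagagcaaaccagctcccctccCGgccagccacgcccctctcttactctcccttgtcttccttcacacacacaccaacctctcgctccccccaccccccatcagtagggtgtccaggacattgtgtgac
Hes5 promoter, chr4:154960673-154960922, plus strand: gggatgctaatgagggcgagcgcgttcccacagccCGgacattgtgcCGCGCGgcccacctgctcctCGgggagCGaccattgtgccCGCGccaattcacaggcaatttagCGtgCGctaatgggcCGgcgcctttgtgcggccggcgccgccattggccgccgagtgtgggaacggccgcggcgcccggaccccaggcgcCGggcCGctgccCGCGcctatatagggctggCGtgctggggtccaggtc
The single measured CpG of the Notch4 stretch was at 4.97%, and the 25 sites of the Hes5 stretch, counting both strands, were at 1.43%. Over the full promoter entries of 300 bases, Notch4 had 5 CpGs, more than 38.0% of all entries, and Hes5 and Notch2 had 41 each, more than 96.5%. The median entry had 7.

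The most methylated part of the Notch4 promoter lies further upstream, in sequence that the reference marks as a repeat.
Notch4 distal stretch, chr17:34563661-34563760, plus strand: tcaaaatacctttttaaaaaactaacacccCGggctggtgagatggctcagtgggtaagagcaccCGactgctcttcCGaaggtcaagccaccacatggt
The 3 capitalized CpGs were at 96.7%, 81.0% and 96.7% in STD and 70.4%, 96.3% and 68.1% in ENR. The 40 bases from 34563693 to 34563732 occur 7115 times without a mismatch in the reference sequence, counting both strands, so reads from this stretch have many near-identical copies and its values are uncertain. Without the 4 repeat-marked sites, the Notch4 promoter was higher than the body by 14 percentage points on average (limma over all genes, adjusted p = 0.00101), with 18.7, 14.6 and 14.4 in STD and 22.8, 8.19 and 5.30 in ENR. The difference thus kept its direction in all 6 libraries over the 5 remaining sites but was less than that over all 9.

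Most body sites of Notch4 lay near its end. Of the 60 sites, 43 lay in the coding part of exon 30, the last exon, and all 43 were within 1 kb of the start of another annotated transcript that begins inside the gene. Their level was 0.60%, 1.49% and 1.08% in STD and 1.03%, 3.23% and 0.940% in ENR. The same part of Notch2, coding exon 34, was at 87.4%, 88.7% and 85.2% in STD and 81.4%, 90.6% and 83.2% in ENR. None of these 16 sites lay within 1 kb of a Notch2 transcript start. The libraries of both genes did not overlap. Exon 34 of Notch1 (3 sites, 14.4%) and exon 33 of Notch3 (2 sites, 45.9%) lay between them, with few sites. This comparison was chosen after the values had been seen. Among 818 genes with at least 3 sites in the coding part of a last exon that begins 5000 bases or more after the transcript start, the median was 65.8%, 104 genes (12.7%) were under 5% and 344 (42.1%) over 80%. Notch4 was among the genes under 5% and Notch2 among those over 80%. Where all sites of that exon part lay within 1 kb of a transcript start of the gene, as in Notch4, 14 of 41 genes (34.1%) were under 5%. Of the same 41 genes, 15 (36.6%) were over 80%. Where none did, as in Notch2, 87 of 764 genes (11.4%) were under 5% and 326 (42.7%) over 80%. Notch4 also held 5 intronic sites, from 15442 to 15771 bases after the start, with a mean of 72.3%.

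**Figure D3:**
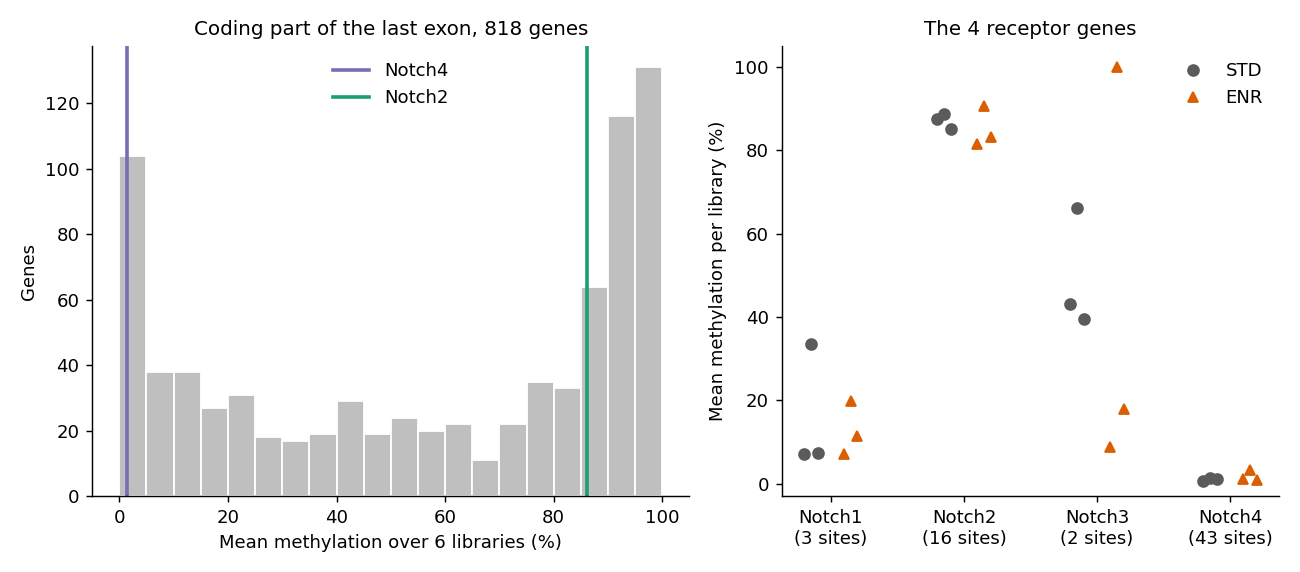
Left, number of genes by the mean methylation in percent of the coding part of their last exon (818 genes, 6 libraries), with lines for Notch4 (1.40%) and Notch2 (86.1%). Right, the same level in each library for the 4 receptors, STD as circles and ENR as triangles. In every library the mean over the 43 sites of Notch4 is below 4% and that over the 16 sites of Notch2 above 80%.

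Stretches of 150 bases from both exons are shown, since they mark the lowest and the highest end of the receptors. The capitals again mark measured CpGs.
Notch4 exon 30, chr17:34587381-34587530, plus strand: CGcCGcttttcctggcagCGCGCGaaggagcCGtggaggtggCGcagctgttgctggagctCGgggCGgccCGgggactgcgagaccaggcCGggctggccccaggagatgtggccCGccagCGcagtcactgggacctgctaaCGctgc
Notch2 exon 34, chr3:98146129-98146278, plus strand: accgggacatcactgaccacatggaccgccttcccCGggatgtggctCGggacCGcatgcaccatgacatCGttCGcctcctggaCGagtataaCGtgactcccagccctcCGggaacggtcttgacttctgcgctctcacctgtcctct
The Notch4 stretch holds 15 CpGs, and its 21 measured sites had a mean of 0.748%, with single sites from 0 to 8.10%. The Notch2 stretch holds 12 CpGs, and its 14 measured sites had a mean of 84.4%, with single sites from 72.0% to 93.7%.

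Among the ligands, Jag1 (chromosome 2, 137081456 to 137116644, minus strand, ENSMUSG00000027276.7) had the most sites, 171. Its 112 promoter sites were at 1.2%, 1.19% and 1.72% in STD and 1.40%, 0.903% and 1.04% in ENR, and its 59 body sites at 16.2%, 13.5% and 12.0% in STD and 13.0%, 15.3% and 11.8% in ENR. Low levels reached past the promoter. The 27 sites of coding exon 2 were at 0.660% and a stretch of 22 intronic sites from 1831 to 2089 bases after the start at 1.78%, whereas 5 sites in and beside exon 17, from 28062 bases after the start, were at 93.0%.

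Jag2, the other Jagged ligand (chromosome 12, 112907819 to 112929776, minus strand, ENSMUSG00000002799.6), had 39 promoter sites at 1.58%, 3.57% and 1.04% in STD and 1.60%, 1.75% and 2.47% in ENR. Its body had 5 sites, at 55.5%, 45.0% and 60% in STD and 65.3%, 44.1% and 54.4% in ENR. The body mean joined unlike sites. At 15994 to 16014 bases from the start, 3 intronic sites were at 87.8%, and the other body sites belong to a stretch of 16 sites from 937 to 1011 bases that was at 0.788%. The 6 sites from -675 to -490 upstream of the start were at 8.08%, and the 15 sites of coding exon 2 at 0.316%.

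Dll1, a Delta-like ligand (chromosome 17, 15367354 to 15376872, minus strand, ENSMUSG00000014773.13), was low over its whole covered length. All 130 sites lay in 1 stretch from -282 to 2074 bases relative to the gene start, with levels of 1.46%, 2.17% and 3.25% in STD and 1.44%, 2.10% and 2.08% in ENR. The promoter (1.98%) and the body (2.26%) had ranges that overlapped, and the 12 sites of coding exon 2 had a mean of 4.78%. The rest of the 9519-base gene had no site.

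Dll4, the endothelial Delta-like ligand (chromosome 2, 119325784 to 119335962, plus strand, ENSMUSG00000027314.6), had 53 promoter sites at 1.67%, 1.68% and 1.22% in STD and 2.31%, 1.23% and 1.39% in ENR. Its 13 body sites were at 5.08%, 9.49% and 11.2% in STD and 11.2%, 5.0% and 10.1% in ENR. The level was 0.775% over 9 coding sites of exon 1, 1.65% over 29 of exon 2, 4.7% at 1 of exon 3 and 18.8% over 5 of exon 4. In exon 4, libraries ranged from 9.64% to 26.6%, and the groups overlapped.

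The targets Hes1 (chromosome 16, 30064384 to 30067796, plus strand, ENSMUSG00000022528.8) and Hes5 (chromosome 4, 154960923 to 154962371, plus strand, ENSMUSG00000048001.7), both repressors of proneural genes, had the lowest window means of the 10 genes. The 109 sites of Hes1 were at 1.92%, 1.5% and 1.16% in STD and 1.74%, 1.78% and 2.05% in ENR. The 81 sites of Hes5 were at 2.16%, 1.97% and 1.42% in STD and 2.56%, 1.21% and 1.98% in ENR. Neither gene had a site with a mean of 20% or more. The coding exons of Hes1 were at 2.48% (36 sites) and those of Hes5 at 1.43% (25 sites), and the highest part of Hes5 was its 3' untranslated region, with 4.76% over 11 sites.

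The core motif bound by Rbpj, TGGGAA on either strand, was searched in the RefSeq promoter entries, which were found for 9 of the 10 genes in 10 entries. Hes1 had no entry, so its promoter was not searched. It was present in the entry of Hes5 and in no other entry of the Notch genes, and in 25.6% of all 32851 entries. Hes5 had 2 matches. The first is shown with the motif in capitals, read on the opposite strand.
Hes5 motif, chr4:154960682-154960717, plus strand: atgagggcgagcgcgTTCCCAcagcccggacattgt
The nearest measured site, 6 bases after this match, was at 22.9%, 0% and 10.1% in STD and 1.52%, 8.89% and 8.57% in ENR. The second match, at -82 relative to the start, was 28 bases from a measured site with a mean of 6.18%. Both sites lay above the promoter mean of Hes5, and their libraries overlapped between the housing groups. No match says only that these letters are missing from the 300 bases searched.

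The effect of housing was then compared for the window, the promoter and the body of each gene. By limma across 16108 gene windows, 0.0% were called at an adjusted p under 0.05, and none of the 10 Notch genes was (adjusted p = 1.00 for each). At an unadjusted p under 0.05 there were 576 windows in all and 0 of the 10, with a smallest limma p of 0.308 in Notch3. The groups did not overlap in 0 of the 10 Notch windows, against 8.23% of all windows. ENR had the lower mean in 5 genes and the higher mean in 5. The differences ran from -1.53 percentage points in Notch3 to 0.735 in Notch1, and the median size was 0.388 points against 0.714 in all genes.

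Notch3 had window levels of 7.45%, 9.40% and 9.40% in STD and 4.41%, 9.48% and 7.78% in ENR. Notch2 was at 31%, 30.2% and 29.8% in STD and 30.2%, 29.9% and 27.8% in ENR. These were the largest differences towards lower values in ENR, and 1 library decided much of each. Without ENR replicate 1, the difference of Notch3 was -0.125 percentage points, and without ENR replicate 3 that of Notch2 was -0.332. Without both libraries numbered 3, Notch2 differed by -0.611 and Notch3 by -1.48. Notch4 differed by -0.999 percentage points and by 0.171 without ENR replicate 3, and by -0.120 without both libraries numbered 3. The difference of Notch1 was 0.138 without ENR replicate 2, 1.56 without ENR replicate 3 and 1.36 without both libraries numbered 3. The other 7 windows, Notch1 included, differed by less than 1 point in either direction with all libraries.

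At promoters, limma called 0.0% of 13204 genes and 0 of the 9 Notch genes, with 595 and 0 at an unadjusted p under 0.05. The groups did not overlap in 0 of these 9 promoters, against 9.53% of all promoters. Notch4 had the largest difference, with STD at 46.0% ± 3.41 (SD, n = 3) and ENR at 38.1% ± 6.58 (SD, n = 3) (-7.86 percentage points, two-sided exact permutation p = 0.2, adjusted limma p = 0.985). Without ENR replicate 3 it was -4.13, and without both libraries numbered 3 it was -4.22. The other 8 promoters differed by -0.724 to 0.777 percentage points. Notch2, the promoter with the smallest limma p (0.143, adjusted p = 0.981), was at 1.47% ± 0.599 (SD, n = 3) for STD and at 0.747% ± 0.462 (SD, n = 3) for ENR.

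At bodies, limma called 0.0% of 10843 genes and 0 of the 9 Notch genes, with 351 and 0 at an unadjusted p under 0.05, and the groups did not overlap in 0 of 9 against 7.48% of all bodies. Notch3 had the largest difference, with STD at 16.4% ± 1.95 (SD, n = 3) and ENR at 12.4% ± 5.61 (SD, n = 3) (-4.05 percentage points, exact permutation p = 0.4, adjusted limma p = 1.00). It was -1.37 percentage points without ENR replicate 1 and -6.96 without ENR replicate 2, and -3.63 without both libraries numbered 3. With all libraries the remaining 8 bodies differed by -1.54 to 1.14 percentage points. The body of Jag2, with 5 sites, differed by -4.22 without ENR replicate 1 and by 6.38 without ENR replicate 2, and that of Notch2 by 0.485 without ENR replicate 3, so the order of these differences rests on single libraries. Without both libraries numbered 3, the body of Jag2 differed by 4.50 percentage points and that of Notch2 by -0.299.

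Whether housing changed promoter and body unequally was tested on the within-library differences. It was called in 0.0% of 7997 genes and in 0 of 8 Notch genes, and an unadjusted limma p under 0.05 was found in 278 genes and in none of the 8. Notch4 came nearest. Its promoter minus body was 42.1, 33.7 and 38.6 percentage points in STD and 32.7, 33.7 and 24.4 in ENR, so that the groups met at 33.7 without overlapping (difference -7.89, limma p = 0.0553, adjusted p = 1.00, exact permutation p = 0.1, the smallest that 3 against 3 allows). Without both libraries numbered 3 the difference was -4.71. Without the repeat-marked sites the Notch4 groups overlapped, as the values given above for the 5 remaining promoter sites show. In the other 7 genes the groups overlapped over all sites. Groups that did not overlap in this difference were found in 7.43% of the 7997 genes, against 1 of the 8.

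Smaller parts of the genes were compared in the same way. The groups did not overlap in 2 of 55 stretches of sites at most 200 bases apart, against 8.32% of all such stretches in protein-coding genes. The first was the low Notch2 intron stretch above, with 6.66%, 2.53% and 5.25% in STD and 13.1%, 21.8% and 7.27% in ENR. The second was a stretch of 22 sites in Hes1, from 2439 to 2664 bases after the start, with 0.768%, 0.253% and 0.891% in STD and 2.76%, 1.07% and 1.44% in ENR. By annotation class within a gene (coding exons, introns, untranslated exons and the parts outside the transcript), the groups did not overlap in 3 of 40, against 8.05% of all classes. These were the 3' untranslated sites of Notch2 (-4.51 percentage points), the introns of Dll1 (-2.16) and the coding exons of Jag1 (0.489). Each of these 5 parts had a two-sided exact permutation p of 0.1, the smallest that 3 against 3 allows.

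**Figure D4:**
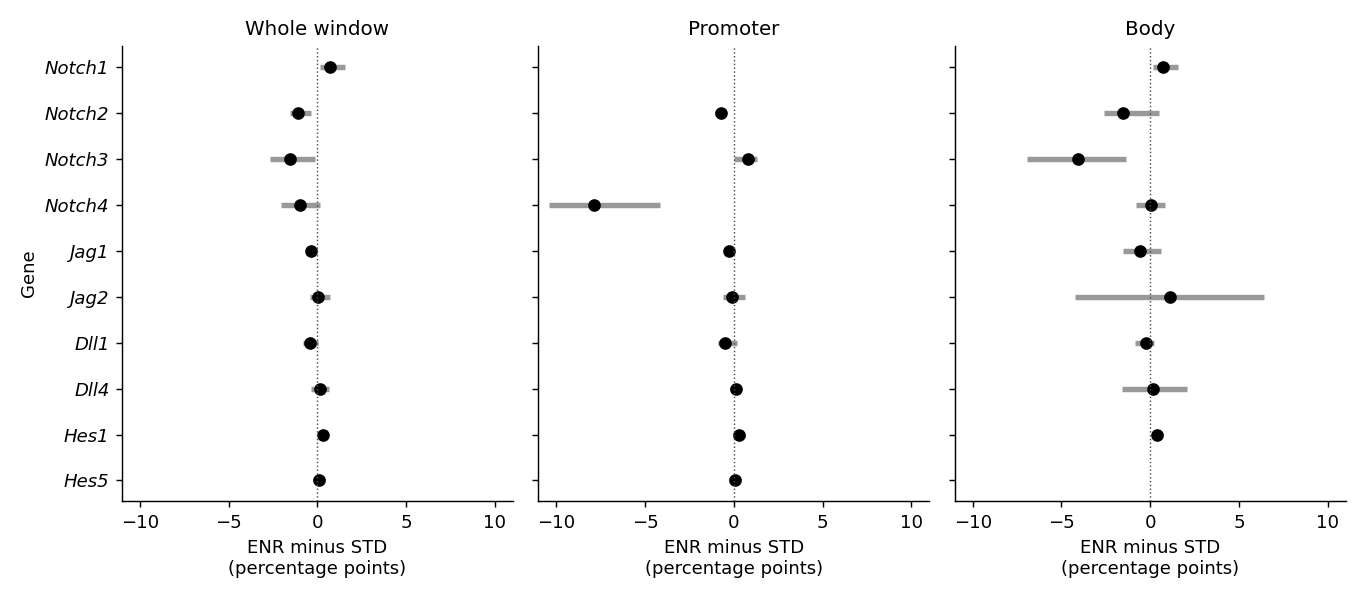
Difference of mean methylation between ENR and STD in percentage points for the window, promoter and body of each gene (points), with the range of the difference when each library was left out in turn (bars). Most points lie near 0; the promoter of Notch4 (-7.86) and the body of Notch3 (-4.05) lie farthest out, and neither passed the test.

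Single sites were compared last. Of 615152 varying sites of the table, limma called 0.0% at an adjusted p under 0.05 together with over 25 percentage points between groups, and 0 of the 523 varying sites of the Notch genes (smallest adjusted p = 0.852). At an unadjusted p under 0.05 there were 16498 sites in the table and 7 in the Notch genes. STD and ENR did not overlap at 21 of the 917 Notch sites (2.29%), against 3.99% of the table. By size alone, 1 Notch site was over 25 percentage points higher in ENR and 2 were lower, against 0.706% and 1.23% of all sites, and at 64 Notch sites the mean left room for a difference of that size. At none of the 3 were the groups apart. The count was 2 without STD replicate 1, 8 without STD replicate 2, 7 without STD replicate 3, 8 without ENR replicate 1, 9 without ENR replicate 2 and 6 without ENR replicate 3.

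In an intron of Notch1, position 26493992 of chromosome 2 was at 0% in all STD libraries and at 78.9%, 65.2% and 0% in ENR, the largest difference of all Notch sites (48.1 percentage points). In an intron of Notch2, position 98019166 of chromosome 3 was at 65.6%, 64.8% and 0% in STD and 20%, 16.0% and 6.25% in ENR. Without both libraries numbered 3 the difference was 72.1 percentage points at the Notch1 site and -47.2 at the Notch2 site. Upstream of Notch4, position 34563691 of chromosome 17, the first CpG of the distal stretch above, was at 100%, 78.8% and 90% in STD and 83.3%, 88.9% and 20.8% in ENR (-25.3 percentage points, and -3.31 without both libraries numbered 3). At each of these sites 1 library numbered 3 stood apart from its group, ENR replicate 3 in Notch1 and Notch4 and STD replicate 3 in Notch2. At the next measured cytosine of Notch1, 8 bases away, the ENR libraries were at 23.7%, 31.8% and 14.7% and the STD libraries at 7.14%, 20% and 0%. At the next measured cytosine of Notch2, 11 bases away, the STD libraries were at 37.5%, 57.5% and 32% and the ENR libraries at 33.3%, 12% and 82.4%, so the group means hardly differed there (0.217 percentage points).

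The capitals mark only the CpG of the named site in the sequences of these intronic sites and of Notch3 exon 24, the coding site with the largest difference. In each of these lines 1 further CpG, in lower case, was also measured.
Notch1 intron, chr2:26493977-26494007, minus strand: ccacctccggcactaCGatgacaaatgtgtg
Notch2 intron, chr3:98019151-98019181, plus strand: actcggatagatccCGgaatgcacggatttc
Notch3 exon 24, chr17:32143624-32143654, minus strand: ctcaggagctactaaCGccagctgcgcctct
The Notch3 site, at position 32143639 of chromosome 17, was at 51.6%, 39.6% and 44.0% in STD and 15.8%, 22.4% and 28.6% in ENR. Its groups did not overlap, and its limma p was 0.151 (adjusted p = 0.852). The difference was -22.8 percentage points, and -26.5 without both libraries numbered 3. At the other measured cytosine of that line, 9 bases away, the groups overlapped, with 72.1%, 68.9% and 70% in STD and 47.3%, 44.3% and 78.6% in ENR. It lies in the exon whose 7 sites together did not separate the groups.

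The site with the widest range over libraries was taken in each gene. In 3 genes a single library carried most or all of the range. Jag2 at 112929266 was at 63.6% in ENR replicate 3 and at 0% elsewhere, Hes1 at 30066580 was at 70.0% in STD replicate 1 and at 0% elsewhere, and Dll1 at 15376867 was at 55.0% in ENR replicate 2 and at most 11.4% elsewhere. The sequences around the Jag2 and Hes1 sites, both intronic, are given with the CpG of the named site in capitals. Other CpGs of these lines, in lower case, were measured too.
Jag2 intron, chr12:112929251-112929281, minus strand: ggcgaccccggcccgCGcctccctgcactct
Hes1 intron, chr16:30066565-30066595, plus strand: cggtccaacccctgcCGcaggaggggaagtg
In the receptors the widest sites were at intermediate levels. Notch3 at 32122744, in exon 33, ran from 0 to 100%, with 24.0%, 76.9% and 37.5% in STD and 8%, 100% and 0% in ENR. Notch2 at 98029191 ran from 0 to 91.7%, and Notch4 at 34580039 from 0 to 87.5%, both in introns. Jag1 at 137097865 ran from 12.5% to 86.8%, Dll4 at 119328105 from 2.27% to 38.0% and Hes5 at 154961804 from 0 to 40.7%. At 9 of the 10 widest sites, which include the Notch1 site above, the housing groups overlapped, and at Dll1 they did not.

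**Figure D5:**
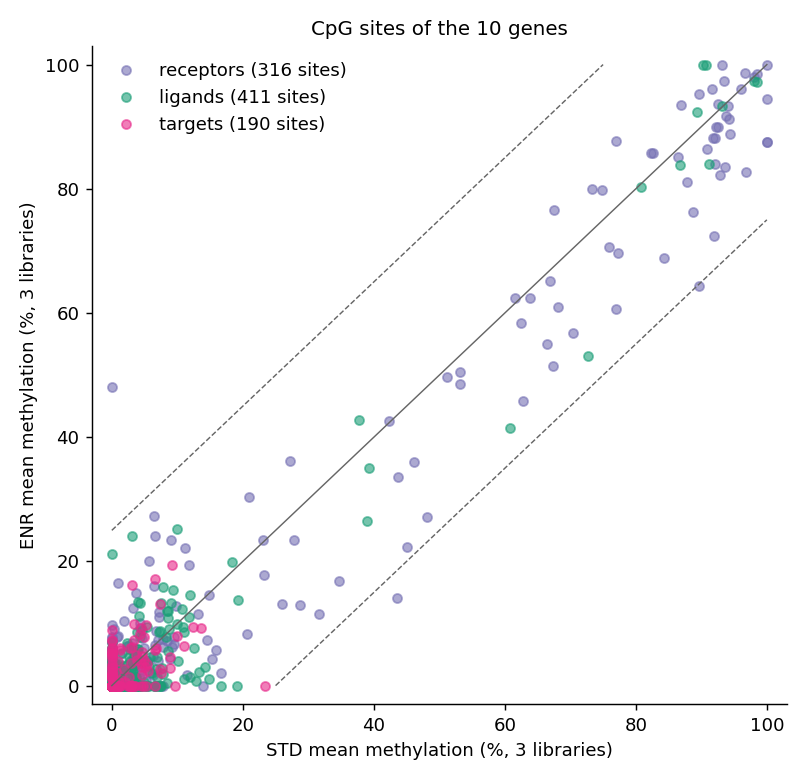
Mean methylation in percent in ENR against STD for the 917 sites, colored by the role of the gene; the solid line marks equality and the dashed lines a difference of 25 percentage points. Target sites lie under 25%, most ligand sites near 0, and 3 receptor sites lie outside the dashed lines.

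The wider pathway was read from a list of 48 further genes, all with sites. Limma called 0 of the 48 windows, and 4 had an unadjusted p under 0.05. The mean was lower in ENR in 24 and higher in 24, the differences ran from -3.95 to 3.82 percentage points with a median of -0.0282, against -0.192 over all genes, and the groups did not overlap in 6, against 8.23% of all windows. An unadjusted p under 0.05 was found in 3.58% of all windows. Of 43 with at least 3 promoter sites, 39 promoters were under 5%. The 2 over 20% were those of Hes7 (27.9%), a further Hes repressor, and Psen2 (25.3%), a gamma-secretase subunit.

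Among genes with at least 10 sites, the largest differences towards lower values in ENR were in Furin, Hes3 and Cntn1. Furin, a protease that cleaves the receptor during its maturation, was at 15.5%, 14% and 18.3% in STD and 14.6%, 10.2% and 11.2% in ENR over 22 sites. Hes3, a repressor related to Hes1, was at 12.3%, 9.35% and 11.4% in STD and 7.06%, 7.50% and 7.18% in ENR over 57 sites, and its groups did not overlap. Its adjusted p in limma over all genes was 1.00. Cntn1, a contactin proposed as a Notch ligand, differed by -2.21 percentage points within overlapping groups. It was at 39.8%, 41.2% and 34.7% in STD and 38.7%, 39.7% and 30.7% in ENR, so ENR replicate 3 was the lowest library. Among genes with at least 10 sites, the largest towards higher values were in Neurl1b (3.14 points), Mib2 (2.41) and Aph1b (1.72). These are 2 ubiquitin ligases of ligand uptake and a gamma-secretase subunit, all with overlapping groups. In Neurl1b, STD replicate 3 was at 3.1% and the other libraries ran from 9.69% to 18.7%. In Mib2, ENR replicate 1 was the highest library at 26.6%, with 11.2% to 22.5% elsewhere. In Aph1b, ENR replicate 2 was at 9.38%, with 3.33% to 5.77% elsewhere. How far these single libraries carry the differences was not tested. Mfng, a glycosyltransferase with 9 sites, differed by 3.82 points.

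Rbpj, which binds DNA for all 4 receptors, was at 9.72%, 9.62% and 9.40% in STD and 9.84%, 9.37% and 7.75% in ENR over 133 sites. Lfng, a glycosyltransferase that changes ligand preference, was at 4.80%, 4.50% and 4.99% in STD and 4.23%, 4.09% and 3.28% in ENR, with groups that did not overlap. Its adjusted p in limma over all genes was 1.00. Hey1, a target like Hes1, was at 1.02% over 59 sites and Dlk1, a Delta-like protein that lacks the usual receptor-binding domain, at 1.45% over 7 sites. None of these differences passed the test across all genes.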

How the data were processed

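RRBS libraries of 6 dentate gyri (3 STD, 3 ENR) were sequenced and processed by the authors. Per the labels, the submitters' processing notes name Trim Galore 0.4.0, cutadapt 1.8.1, Bismark 0.16.1, methylKit 1.5.2 and mm10. The deposited table gives percent methylation per cytosine and library, for cytosines that passed the authors' minimum read number. Read numbers are not part of it, so the depth behind a value is unknown, the study's test of reads could not be run, and neither could another coverage minimum. All 890041 rows were complete, and 0 columns were left unused.

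Sites were assigned to GENCODE M21 gene records, and means per library of windows, promoters (1 kb either side of the start) and bodies with at least 3 sites were fitted over all protein-coding genes with limma 3.58.1 in R 4.3.3 (variance trend, Benjamini-Hochberg), tested on simulated data. Single values had two-sided exact permutation tests, whose smallest p is 0.1. Neighboring cytosines share reads and are not independent. Sequences came from RefSeq GRCm38.p6, the build of the table. All 10 genes are named. Sites named were those over 25 percentage points with groups apart (none), the widest of each gene and, after their values were seen, those over 25 points, a site in Notch3 exon 24, and the neighbors of the Notch1, Notch2 and Notch3 sites. Pathway genes named were the 3 largest differences each way among those with at least 10 sites, plus Rbpj, Lfng, Hey1 and Dlk1; Hes7, Psen2 and Mfng were named after their values were seen. The members, lists and tests were chosen with earlier results of these data known. Alternatives covered scale, site summary, normalization, promoter definition, repeats, replicates and the replicate block.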

Additional observations from a re-analysis of the deposited data

How the results depend on the processing

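No alternative gave a call for housing in any window, promoter, body or site of the 10 genes. These counts of 0 include the fit with the replicate number as a replicate block (0 windows, 0 promoters, 0 bodies, 0 differences of promoter and body, 0 sites). Whether the numbers pair the libraries cannot be decided from these values. The correlations of the deviations of same-numbered libraries were 0.0552, 0.0319 and 0.125 for numbers 1 to 3. Those of other pairs ran from -0.0820 to 0.0410. The libraries numbered 1 and 3 correlated best with their own number, and those numbered 2 with a library of another number. Read numbers are unknown, so what depth limits cannot be given. The count of promoters lower than bodies was 3 instead of 5 with a promoter of 1 kb upstream only, under which Dll4 and Notch3 could not be tested, Jag2 was not called and Hes1 was. It was 4 with the median over sites, under which the difference of Jag1 was 0 in all 6 libraries and was not tested. Notch4 was the 1 promoter called higher than its body, by 55.8 percentage points with the upstream promoter and by 14 without repeat-marked sites. The exception was the setting that set sites within 1 kb of any transcript start against the rest, under which 0 were called higher and 5 lower, with Notch4 (-22.1) and Notch1 (-4.32) among the 5, Dll4 at 0.693 and no longer called, and under which Jag2, Dll1 and Hes1 could not be tested. The 3 sites over 25 percentage points became 10 when 20 points were required, 1 when 40 were, 6 with group medians, 2 to 9 with each replicate left out in turn and 9 without both libraries numbered 3, and the cause was not tested. Of 28 differences of windows, promoters and bodies, 12 kept their sign when any 1 library was left out. Of 308 recomputed values 303 moved by less than 1 SD, a count that does not measure stability. Leaving out 1 of 3 libraries cannot move a group mean by 1 SD of its group. Leaving out sites shared with another protein-coding window changed none of the 28 differences. The repeat setting, that of any transcript start against the rest and the setting without both libraries numbered 3 were chosen after seeing the data.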
